A study of Mus musculus with 14 samples.

Results

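The ephrin, semaphorin and netrin guidance genes were examined in the hippocampus of embryos of 2 mouse models of Down syndrome. They were the genes whose symbol marks them as an Eph receptor, an ephrin, a semaphorin of classes 3 to 7, a plexin, a neuropilin, a netrin, Dcc or an Unc5 receptor, and 61 of the 19841 named genes of the deposited gene table met this rule. They comprised 9 Eph A and 5 Eph B receptors, 5 ephrin-A and 3 ephrin-B ligands, 7 class 3, 6 class 4, 2 class 5, 4 class 6 and 1 class 7 semaphorins, 9 plexins, 2 neuropilins, 4 netrins and 4 Unc5 receptors. Dcc was not analysed here. The rule used names, and expression only to take the row with the highest mean where a symbol had several. The 189N3 mice carry an extra copy of Dyrk1a, a dose-sensitive kinase gene, on a bacterial artificial chromosome (Tg(Dyrk1a)189N3Yah), and the Dp(16)1Yey mice carry a duplication of the stretch of mouse chromosome 16 from Lipi to Zfp295, now called Zbtb21, so that its genes are present in an additional copy. Each line is 1 transgenic or duplication line on a background described as C57BL6, and the wild-type groups are littermates without the extra copy. Hippocampi came from embryos of embryonic days 16 to 18, and gave 3 libraries of 189N3 with 3 of wild-type littermates, and 4 libraries of Dp(16)1Yey with 4 of wild-type littermates. As the libraries come from whole tissue, fewer cells of a type and less RNA per cell cannot be told apart.

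Axon guidance genes steer growing axons and migrating neurons. Eph receptors are receptor tyrosine kinases that bind membrane-bound ephrins on neighbouring cells, and signals pass in both directions. Secreted class 3 semaphorins act through neuropilins, which bind them, and class A plexins, which signal into the cell; class 4 to 7 semaphorins are mostly membrane-bound and bind plexins directly. Netrins attract axons through Dcc and repel them through Unc5 receptors. In the developing hippocampus these families are known for the layering of afferents, the guidance of mossy fibres and the formation of commissural and septal connections.

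Values are normalised fragments, that is the sequenced fragments of a gene divided by a size factor of its library. The libraries held between 20809135 and 29098454 fragments. Dyrk1a was between 3938 and 5877 normalised fragments in 189N3 and between 2126 and 2977 in their wild-type littermates, without overlap. In Dp(16)1Yey it was between 2124 and 4781, overlapping the littermates (2397 to 3175), and 75 of the 85 tested loci of the duplicated stretch had a higher mean, with a median log2 fold change of 0.42. In the library labelled Dp(16)1Yey replicate 1 these loci lay at a median of only 0.10 above the littermates on the log2 scale, beside 0.69, 0.58 and 0.40 in replicates 0, 2 and 3, so its values go against its label, and values without it are given beside the members named in that comparison where it moves them by over 1.5 times. The wild-type littermates of Dp(16)1Yey formed nearly alike pairs: replicates 0 and 1 differed by 1.65 times, and replicates 2 and 3 by 2.05 times, the variance that counting alone gives, whereas other pairs within a group differed by 8.95 to 111 times. All 10 hippocampal marker genes looked up (Prox1, Zbtb20, Lef1 and others) were detected in every group. So were the markers found for other tissues, such as epidermis and striatum, and detection alone does not identify the tissue.

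The 61 guidance genes lay on 19 chromosomes with at most 6 on any one, and none lay in the duplicated stretch, which spans chr16:75540514-97962622 (GRCm38). Of the 4 members on chromosome 16, Epha3 ended 11.7 Mb, Epha6 14.9 Mb, Sema5b 39.9 Mb and Ephb3 54.3 Mb before its start. The promoter windows of 53 members were found in RefSeq (GRCm38.p6; 250 bases before to 50 after a gene's start, 67 windows because some genes have several starts). Their median content was 64.3% G and C with 20 CpG dinucleotides, beside 52.7% and 7 over all 32851 windows. These belong to 27025 genes, the members among them, and were not limited to genes expressed in these libraries. A comparison with expressed genes alone was not made. A GC box, searched as GGGCGG on both strands, was found in 50 of the 67 windows (74.6%), against 35.7% of all windows. The TATA motif TATAAA, on both strands, was found in 1 of the 67 (1.49%), against 13.6% of all windows.

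The windows of the 3 Eph receptors that lead the comparisons are shown to set their starts side by side, each 5′ to 3′ on the minus strand, with GC boxes in capitals: Epha3 at chr16:63864126-63864425, Epha8 at chr4:136956767-136957066 and Ephb1 at chr9:102354644-102354943. Their G and C content was 60.7%, 84.3% and 55.7%, and they held 18, 56 and 14 CpG dinucleotides.
Epha3: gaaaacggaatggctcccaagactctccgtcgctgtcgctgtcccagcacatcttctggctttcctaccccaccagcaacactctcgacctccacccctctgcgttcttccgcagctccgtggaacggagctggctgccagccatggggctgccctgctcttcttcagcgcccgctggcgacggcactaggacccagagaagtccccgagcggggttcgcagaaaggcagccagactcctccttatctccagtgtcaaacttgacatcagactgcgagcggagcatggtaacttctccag
Epha8: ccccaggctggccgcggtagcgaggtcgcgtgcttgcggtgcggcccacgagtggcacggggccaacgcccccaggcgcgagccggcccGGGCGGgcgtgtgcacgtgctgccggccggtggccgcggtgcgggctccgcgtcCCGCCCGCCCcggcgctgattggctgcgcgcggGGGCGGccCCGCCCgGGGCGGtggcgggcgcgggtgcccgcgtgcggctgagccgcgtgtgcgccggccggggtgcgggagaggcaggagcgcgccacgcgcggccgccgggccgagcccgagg
Ephb1: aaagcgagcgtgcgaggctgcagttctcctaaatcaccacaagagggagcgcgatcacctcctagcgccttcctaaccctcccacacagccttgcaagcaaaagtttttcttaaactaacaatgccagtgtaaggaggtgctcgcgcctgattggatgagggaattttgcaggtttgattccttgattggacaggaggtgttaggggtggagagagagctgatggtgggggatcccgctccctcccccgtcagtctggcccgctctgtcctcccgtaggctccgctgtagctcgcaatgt
The Epha8 window held 6 GC boxes, and the windows of Epha3 and Ephb1 held none. A match is a run of letters and was not shown to be a bound site.

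To see which members the hippocampus carries most of, levels were compared per kb of exon. Epha4, an Eph receptor that binds ephrins of both classes, had the highest mean level, with 1393 normalised fragments per kb over the 14 libraries, followed by the semaphorin receptor Nrp1 with 1388. Their ranges over libraries (893 to 2415 and 447 to 2432) overlapped almost fully, so these neighbours in the order did not differ beyond their spread. The secreted semaphorin Sema3c followed with 924 per kb (330.4 to 1387) and the plexin Plxna2 with 625 (439.9 to 860.1). Within the other classes the leading levels per kb were 182 for Ephb1, 109 for the ligand Efna4, 544 for the ligand Efnb3, 130 for Sema4c, 75.2 for Sema5a, 204 for Sema6d, 132 for Sema7a and 235 for Unc5d. The Efnb3 row also holds transcripts of its neighbour Wrap53, and Efnb3 transcripts made up 82.7% and 1.14% of it. The row of Ntn3, with 477 per kb, is mostly the overlapping gene Tbc1d24: the Ntn3 transcript took 5.79% of the estimated fragments, so this is not the level of the netrin alone. Apart from that row the netrins were low, with 27.5 per kb for Ntn4, 25.0 for Ntn1 and 0.13 for Ntn5. At the low end of the Eph A receptors stood Epha8 with 6.93, Epha2 with 3.66, Epha10 with 2.53 and Epha1 with 1.14 per kb.

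**Figure D1:**
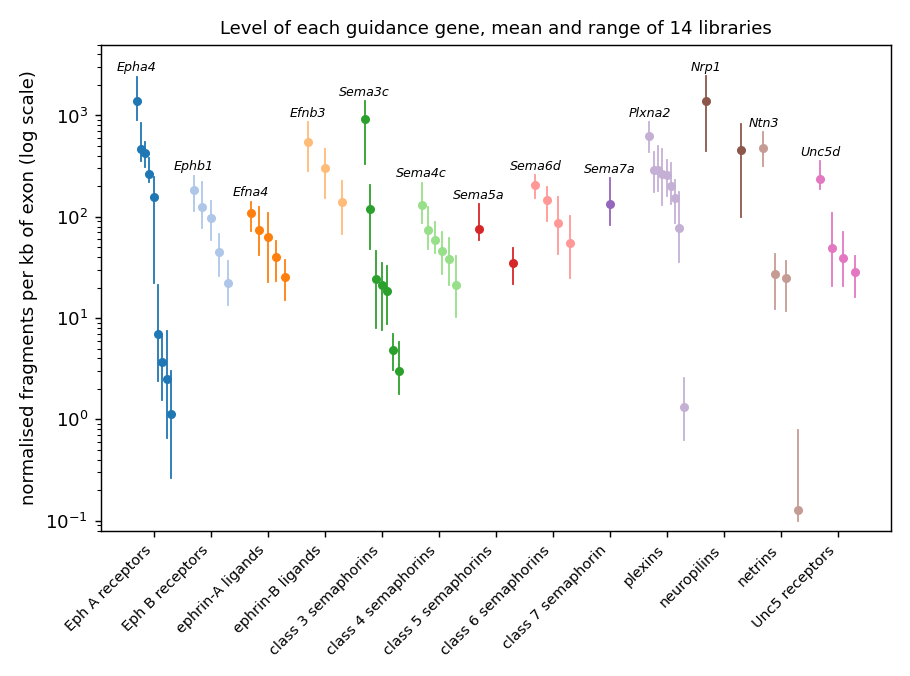
Level of each of the 61 guidance genes by role, in normalised fragments per kb of exon on a log scale; points are means over 14 libraries, lines run from the lowest to the highest library, values under 0.1 are drawn at 0.1, and the leading member of each role is named. Epha4 (1393) and Nrp1 (1388) lie highest and Ntn5 (0.13) lowest.

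The median SD of a member within a group, on the log2 scale over the 58 members with a mean of at least 10, was 0.41 in 189N3 and 0.24 in its littermates, and 0.53 in Dp(16)1Yey and 0.28 in its littermates, which are nearly alike in pairs. Over the 36045 loci of the same minimum mean it was 0.40, 0.22, 0.36 and 0.29. In Dp(16)1Yey it was 0.54 over the members and 0.34 over all loci when the library labelled replicate 1 was left out. Some libraries stood apart. In Dp(16)1Yey replicate 0, 54 of these 58 members lay above their 14-library mean, with a median deviation of 0.49 on the log2 scale, and in 189N3 replicate 2 it was 47 members with 0.42. In the library labelled Dp(16)1Yey replicate 1 only 13 lay above it, with a median of -0.34, and in 189N3 wild-type replicate 2 only 10, with -0.40. Named loci as a whole moved with the members in part: their median deviation was 0.17, 0.34, 0.01 and -0.08 in these 4 libraries, and named loci held 75.6%, 81.8%, 70.3% and 69.4% of the normalised fragments. The part of this library composition in the members' values was not tested.

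The nearly alike pairs of Dp(16)1Yey littermates differed in several receptors and ligands, named here after their values were seen. Nrp1 was at 18344 and 18499 normalised fragments in replicates 0 and 1 and at 9307 and 8708 in replicates 2 and 3. Epha4 was likewise high in replicates 0 and 1 (17114 and 16848) and low in replicates 2 and 3 (7194 and 7336). Sema3a, a secreted repellent of hippocampal and cortical axons that signals through Nrp1, had the opposite order, with 668 and 756 in the former and 1958 and 1866 in the latter. Plxnd1 (474, 399.8, 1084 and 1273 in replicates 0 to 3) and Unc5c (409, 399.8, 889 and 944) followed the order of Sema3a. Among the Dp(16)1Yey libraries, replicate 2 had the highest Nrp1 (23792) and Epha4 (19453) and the lowest Sema3a (709). These are values of single libraries and were not tested as groups.

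**Figure D2:**
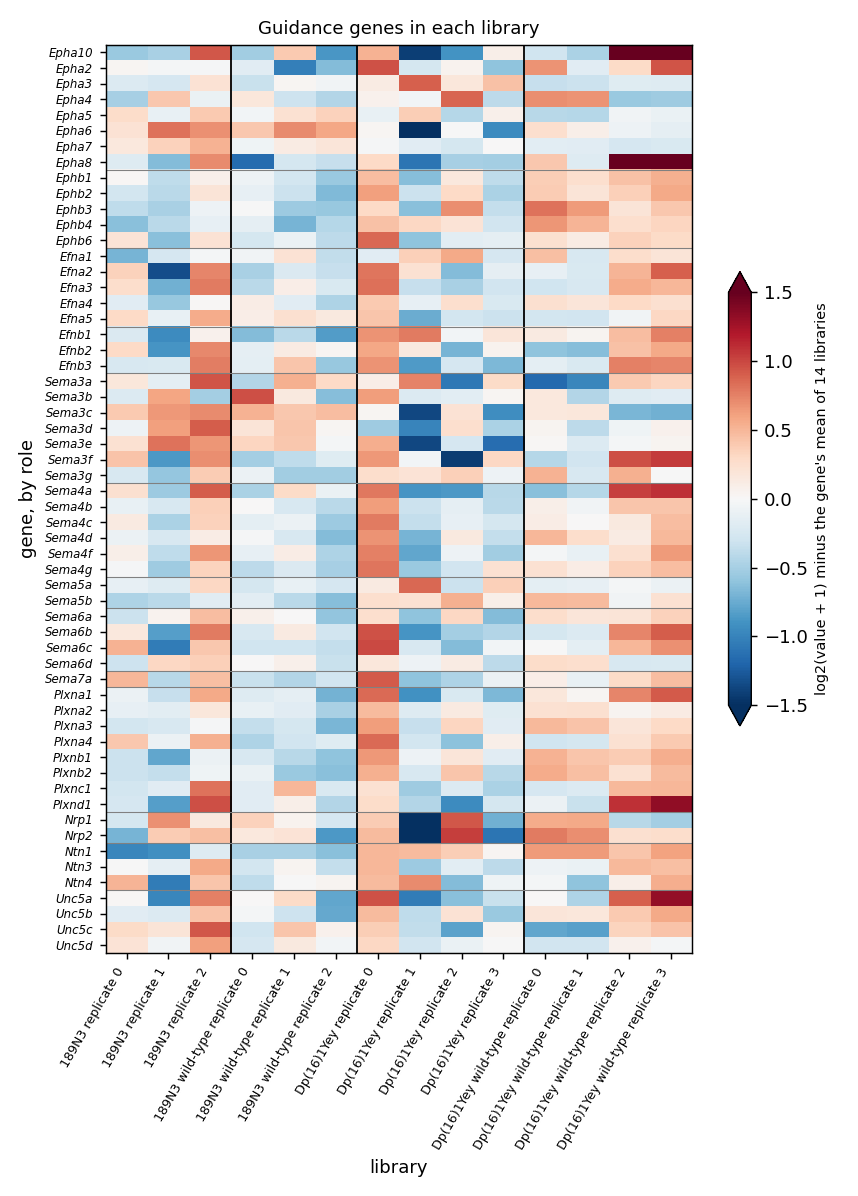
Each of the 58 guidance genes with a mean of at least 10 (rows, by role) in each of the 14 libraries (columns, by group), as log2(value + 1) minus the gene's mean over the libraries; red is above and blue below that mean. Dp(16)1Yey replicate 0 is above the mean for 54 genes, the library labelled replicate 1 for 13, and the 4 wild-type littermates of Dp(16)1Yey fall into like pairs.

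The first comparison asked which guidance genes respond to an extra copy of Dyrk1a alone. No member passed the threshold in 189N3: 59 were tested and 0 had an adjusted p under 0.05 (limma; 0% of the 35899 loci tested were called), with 0 also by edgeR and by DESeq2. At an unadjusted p under 0.05 there was 1 member in limma, 1.69% of those tested, beside 1.87% of all loci. There were 2 members in edgeR (1.92% of all loci) and in DESeq2 (1.53%). In 54 of the 59 members the mean log2 value was higher in 189N3, with a median log2 fold change of 0.21, beside a median of -0.04 over all loci and 0.04 over the named loci tested, 58.7% of which were higher. Groups did not overlap in 2 members, 3.39%, beside 4.98% of all loci.

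Plxna4, a receptor component for Sema3a and class 6 semaphorins, had the smallest p. Its values were 5176, 3684 and 5638 in 189N3 and 2835, 3210 and 3448 in the wild-type littermates. All 3 model libraries lay above all 3 littermates, and the log2 fold change was 0.59 ± 0.23 (SE), with an unadjusted p of 0.0234 and an adjusted p of 1.00 in limma and an exact permutation p of 0.10, the smallest that 3 against 3 samples allow. Epha2, an Eph A receptor, was the other member without overlap, at 16.1, 15.5 and 15.6 against 13.9, 7.22 and 9.67, values near the minimum mean of 10 for testing. Its log2 fold change was 0.61 ± 0.38 (SE), or 0.41 without 189N3 wild-type replicate 1.

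Sema7a, a membrane-anchored semaphorin, came next in the order of p, with 586, 312 and 569.8 in 189N3 and 330.1, 306 and 341 in the littermates. One model library, replicate 1, lay among the littermates, and the log2 fold change was 0.53 ± 0.27 (SE). The repulsive netrin receptor Unc5c (0.41 ± 0.27, SE) and the plexin Plxna1 (0.39 ± 0.27) had overlapping groups, and without 189N3 replicate 2 they were at 0.18 and 0.13. Sema7a was at 0.83 without 189N3 replicate 1. The 5 members with lower mean log2 values were the ligands Efna1 (-0.26 ± 0.31), Efna4 (-0.07 ± 0.27) and Ntn1 (-0.16 ± 0.28), the secreted Sema3b (-0.20 ± 0.46) and the low plexin Plxnb3 (-0.16 ± 0.45), each smaller than its standard error. By role, all 8 tested Eph A receptors, all 5 Eph B receptors, all 6 class 4 semaphorins, all 4 class 6 semaphorins and all 4 Unc5 receptors had higher mean log2 values, with class medians between 0.18 and 0.35 on the log2 scale.

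The median of the members rested on single libraries: it was 0.04 without 189N3 replicate 2, 0.10 without 189N3 wild-type replicate 2 and 0.33 without 189N3 replicate 1. The number of members with an unadjusted p under 0.05 was 12 without 189N3 replicate 1, when 6.78% of all loci had one. It was 0 without 189N3 replicate 0 (1.64% of all loci), 189N3 wild-type replicate 0 (0.903%) or 189N3 wild-type replicate 1 (2.40%). Markers of other tissues moved with this comparison. All 9 erythroid genes had lower values in 189N3, all at an unadjusted p under 0.05, and their summed level was 13948 to 22266 against 34047 to 54502 in the littermates, without overlap. Of the epidermal markers 10 of 10 tested were lower, with sums of 414 to 742 against 674 to 3826, and of the mesenchymal and meningeal markers 8 of 9, with sums of 2657 to 4713 against 4142 to 9016. Of 11 neocortical markers 10 were higher (sums of 10243 to 20804 against 10820 to 13588), whereas 11 of 12 progenitor and cell cycle genes (28574 to 33715 against 29884 to 36997) and 6 of 8 Cajal-Retzius genes (12824 to 23265 against 17486 to 25944) were lower. No marker of these lists was at 0 in a whole group, and their part in the members' values was not tested.

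**Figure D3:**
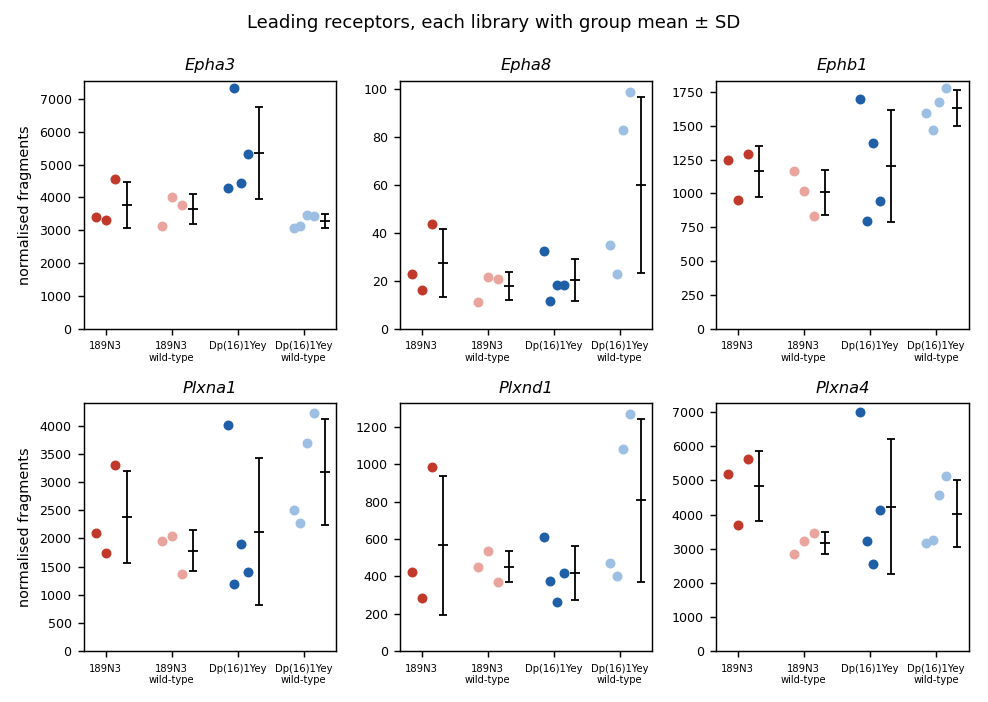
Normalised fragments of 6 receptors in each library (points) with the group mean ± SD (bars), for 189N3 and Dp(16)1Yey and their wild-type littermates; vertical axes start at 0. Epha3 is higher in all 4 Dp(16)1Yey libraries than in their littermates, Plxna4 in all 3 189N3 libraries, and the groups of the other 4 receptors overlap in both models.

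The second comparison asked the same of the whole duplicated stretch. In Dp(16)1Yey 58 members were tested and 0 had an adjusted p under 0.05 (limma; 0% of 36024 loci), with 0 by edgeR and by DESeq2 as well. At an unadjusted p under 0.05 there were 4 members, 6.90% of those tested beside 3.53% of all loci, and of the 4 members 1 was higher and 3 lower. edgeR and DESeq2 also gave 4, beside 3.67% and 3.66% of all loci, but not the same 4. Ephb1, 1 of the 4 in limma, had an unadjusted p of 0.0672 in edgeR and 0.0661 in DESeq2. The mean log2 value was lower in 46 of the 58 members, with a median log2 fold change of -0.25 beside 0.03 over all loci and -0.05 over the named loci, 57.3% of which were lower. Groups did not overlap in 1 member, 1.72%, beside 2.45% of all loci.

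Epha3, an Eph A receptor that binds ephrin-A ligands, was that member. It had 4303, 7338, 4444 and 5334 normalised fragments in Dp(16)1Yey and 3085, 3137, 3481 and 3442 in the wild-type littermates. Each model library lay above each littermate, the highest being the library labelled replicate 1. The log2 fold change was 0.67 ± 0.18 (SE), with an unadjusted p of 0.00342 and an adjusted p of 0.909 in limma and an exact permutation p of 0.0286, the smallest that 4 against 4 samples allow. Without the library labelled replicate 1 it was 0.51, the lowest of the values with 1 library left out. With the nearly alike littermates averaged it was 0.67, with an unadjusted p of 0.0292 and an adjusted p of 1.00 in limma. The permutation p counts each of these littermates as a separate sample. In 189N3 Epha3 was at 3419, 3304 and 4578 against 3127, 4019 and 3780, with a log2 fold change of 0.04 ± 0.23.

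Epha8, another Eph A receptor, had the next smallest p and a lower mean in the model. It was at 32.6, 11.8, 18.4 and 18.1 in Dp(16)1Yey and at 35.0, 22.8, 83.1 and 99.1 in the littermates. The groups overlapped, and the littermates themselves split, with replicates 2 and 3 far above replicates 0 and 1. The log2 fold change was -1.38 ± 0.46 (SE), with an unadjusted p of 0.0121 and an adjusted p of 0.909 in limma and an exact permutation p of 0.0571. In 189N3 it was 0.54 ± 0.41, on values of 22.8, 16.3 and 43.6 against 11.3, 21.7 and 20.5, and 0.16 without 189N3 replicate 2. Epha3 and Epha8 are both on the list of changed genes that the study drew from these samples, so that list is not independent evidence of their direction.

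Plxnd1, a plexin that binds Sema3e, had values of 611, 374, 263 and 419.7 in Dp(16)1Yey and 474, 399.8, 1084 and 1273 in the littermates. Its groups overlapped, with the littermates again split, and the log2 fold change was -0.84 ± 0.38 (SE; unadjusted limma p of 0.0485). Ephb1, an Eph B receptor, was at 1696, 793, 1377 and 943 against 1596, 1472, 1675 and 1782. Replicate 0 lay among the littermates and the other 3 model libraries below them, and the log2 fold change was -0.50 ± 0.23 (SE; unadjusted limma p of 0.0493), or -0.32 without the library labelled replicate 1. With the nearly alike littermates averaged, the unadjusted limma p was 0.0702 for Plxnd1, 0.144 for Ephb1 and 0.0202 for Epha8. Plxna1 (-0.71 ± 0.35) and Epha6 (-0.92 ± 0.48) completed the 5 lower members with the smallest p. Plxna1 was at -1.07 without replicate 0 and at -0.48 without the library labelled replicate 1. Epha6, which lies on chromosome 16 as Epha3 does, was at 751, 119, 735 and 381 against 877, 781, 701 and 673, and its fold change was -0.34 without the library labelled replicate 1, which held the value of 119.

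Besides Epha3, the higher members with the smallest p were Sema5a (0.36 ± 0.22, SE), Epha5 (0.23 ± 0.19), Sema3a (0.37 ± 0.43) and Sema3b (0.23 ± 0.30), all with overlapping groups. Without the library labelled replicate 1 they were at 0.16, 0.10, 0.13 and 0.33. Left-out libraries moved Sema3a also to 0.10 (wild-type replicate 0) and 0.73 (replicate 2), Sema3b to 0.05 (replicate 0), and Sema5a and Epha5 to 0.55 and 0.36 (replicate 2). By role, mean log2 values were lower in all 5 Eph B receptors (median -0.34), all 6 class 4 semaphorins (-0.31) and all 4 class 6 semaphorins (-0.33), and these were all lower also without that library, with medians of -0.31, -0.16 and -0.22. They were lower in the 8 tested plexins (-0.34), of which Plxna4 was at 0.00 ± 0.29 and turned to 0.09 without that library, when 7 of 8 were lower with a median of -0.25. Of the neuropilins, which had a median of -0.59, Nrp1 was at -0.28 and Nrp2 at -0.90, and without that library they were at 0.15 and -0.36. Of the 8 tested Eph A receptors 4 were higher and 4 lower. The ligands Efnb1 and Efnb2 differed by 0.05 ± 0.23 and 0.08 ± 0.33, or -0.08 and 0.04 without that library.

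Single libraries moved these counts as well. Without Dp(16)1Yey replicate 0, 28 of 58 members had an unadjusted p under 0.05 (12.7% of all loci) and the median was -0.49. Without the library labelled replicate 1 the count was 2 of 58 members, beside 721 of 35999 loci, and the median was -0.15. Without replicate 2 there were 9 members (6.17% of all loci) and without wild-type replicate 1 there were 6 (3.54%). There were 2 without replicate 3 (2.48%) and without wild-type replicate 2 (2.49%) or 3 (2.37%). With the nearly alike littermates averaged there were 2, beside 0.736% of all loci. Of the marker lists, all 9 erythroid genes were higher in Dp(16)1Yey (sums of 6170 to 55947 against 4739 to 17439) and 8 of 10 endothelial genes lower (2040 to 4324 against 3441 to 3581). All 8 Cajal-Retzius genes were lower (11091 to 26178 against 15185 to 27064), as were 8 of 10 hippocampal markers. The sum of all 10 hippocampal markers was 23309 to 28628 against 20291 to 22332. Much of that sum was Neurod6, with a mean of 15085 against 9772, which was higher, as was Meis2 (4038 against 3262). Of 20 striatal and ventral markers 14 were lower (3017 to 7059 against 2995 to 8538), and of 9 mesenchymal markers 7 were higher (1739 to 4973 against 1696 to 2155). No marker of these lists was at 0 in a whole group, and their part in the members' values was not tested.

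**Figure D4:**
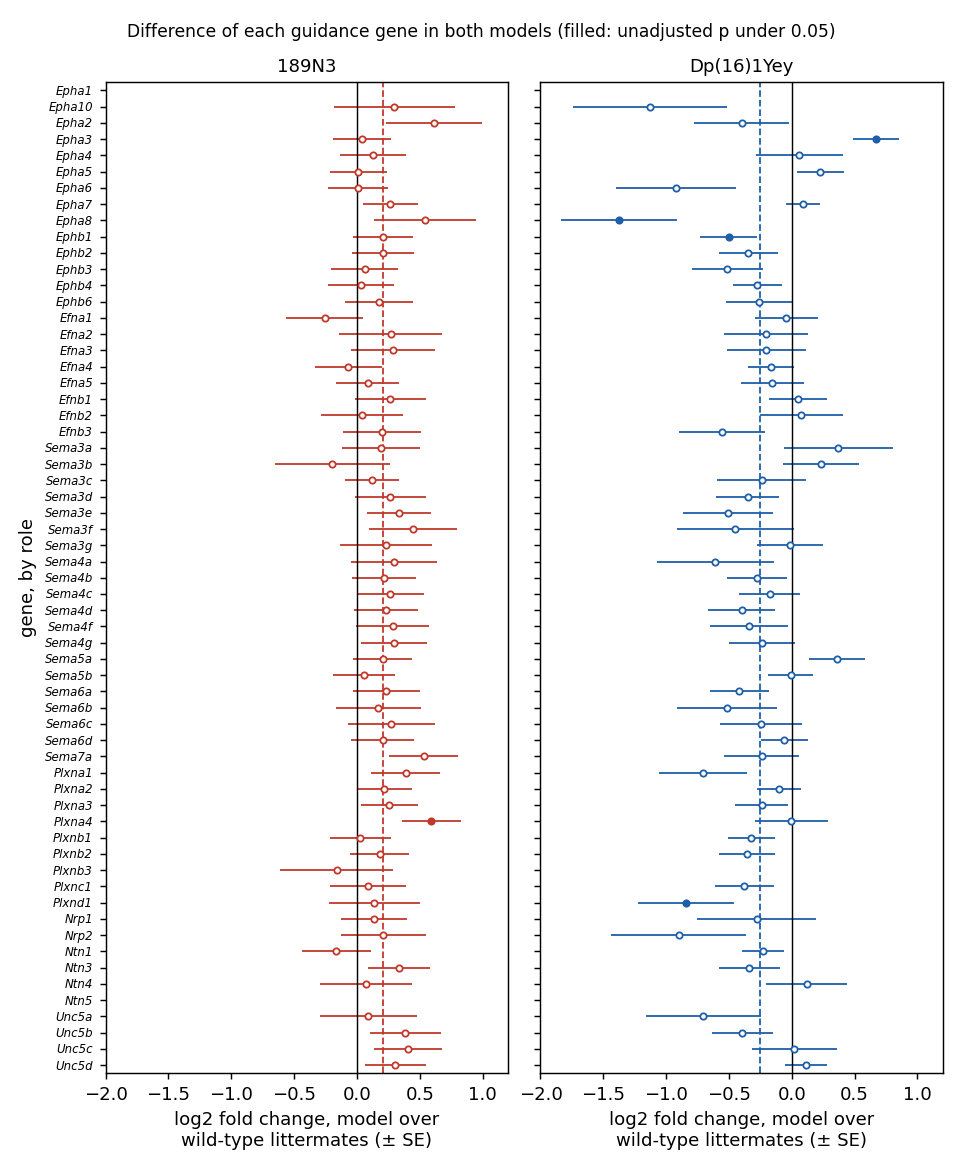
Log2 fold change of each tested guidance gene, by role, in 189N3 (left) and Dp(16)1Yey (right) over wild-type littermates, with standard errors from limma; filled points have an unadjusted p under 0.05 and dashed lines mark the medians. The medians are 0.21 and -0.25, and none of the genes has an adjusted p under 0.05.

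The effects of the models were set against each other in an interaction term over the 14 libraries (the Dp(16)1Yey effect minus the 189N3 effect), which uses the same libraries as the comparisons above. Of 58 members 0 had an adjusted p under 0.05 (limma; 0% of 36045 loci), with 0 by edgeR and by DESeq2. By edgeR there were 2 at an unadjusted p under 0.05 (2.51% of all loci) and by DESeq2 3 (2.46%). By limma there were 4, 6.90% beside 2.66% of all loci. These were Epha8 (-1.92 ± 0.69 on the log2 scale, SE), Plxna1 (-1.09 ± 0.50), Ephb1 (-0.71 ± 0.33) and Epha3 (0.63 ± 0.27), with unadjusted limma p of 0.0129, 0.0449, 0.047 and 0.0344 and an adjusted p of 0.922 each. The difference was below 0 in 50 of 58 members, with a median of -0.49 beside 0.08 over all loci and -0.08 over named loci. Left-out libraries moved the count of 4 to 21 (Dp(16)1Yey replicate 0, with 9.55% of all loci), 9 (189N3 replicate 1, 5.45%) and 8 (Dp(16)1Yey replicate 2, 3.27%). It was 2, beside 1.91% to 3.07% of all loci, without 189N3 replicate 2, 189N3 wild-type replicate 1, Dp(16)1Yey replicate 3 or Dp(16)1Yey wild-type replicate 0, 2 or 3. It was 1 without 189N3 wild-type replicate 2 (1.33%) or the library labelled Dp(16)1Yey replicate 1 (1.65%), with nearly alike libraries averaged (1.14%) and without the trend (3.06%). The median was -0.31 without 189N3 replicate 2.

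The wild-type littermates of the 2 lines were compared to see how the members vary without the extra copies. Line, litter, embryonic day, dissection and library preparation cannot be told apart here. These libraries are also the controls of the model comparisons. Of 58 members 10 had an adjusted p under 0.05 in limma, 17.2% beside 3.75% of the 36047 loci and 5.74% of the named loci among them. All 10 were lower in the littermates of 189N3, a direction in which 2.29% of all loci were called. They were 4 of 5 Eph B receptors, 3 of 8 plexins, Efnb1, Sema4g and Ntn1. This count rested on every library: it was between 0 and 2 with any 1 left out, namely 0 without any of the 3 libraries of 189N3 wild-type or without Dp(16)1Yey wild-type replicate 0, 1 without replicate 1 or 3 and 2 without replicate 2. With 1 library left out 13 to 78 of all loci were called. The count was 0 with the nearly alike littermates averaged (28 of 36047 loci, 0.0777%) and 0 in a fit of all 4 groups (0.111%). It was 7 by edgeR, beside 3.01% of all loci, and 16 by DESeq2, beside 9.05%, of which 14 were lower and 2, Epha6 and Sema3c, higher in the littermates of 189N3.

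Ntn1, the founding secreted netrin, was at 104, 104 and 94.3 in the littermates of 189N3 and at 228, 228, 195 and 221 in those of Dp(16)1Yey, with no overlap and a log2 difference of -1.11 ± 0.14 (SE; adjusted limma p of 0.0158). In the models Ntn1 was at 73.6, 76.7 and 128 in 189N3 and at 206, 203, 189 and 149 in Dp(16)1Yey. Ephb2, a receptor at commissural axons and synapses, was at 1081, 937 and 742 against 1529, 1342, 1507 and 1739 (-0.74 ± 0.15; adjusted limma p of 0.0424). Ephb1 (-0.70 ± 0.14), Ephb3 (-0.89 ± 0.20) and Ephb4 (-0.86 ± 0.18) also passed, each without overlap, and Ephb6 did not (-0.50 ± 0.13; adjusted limma p of 0.0587). Of the plexins, Plxnb1 (-0.89 ± 0.12), Plxnb2 (-0.86 ± 0.15) and Plxna3 (-0.78 ± 0.14) passed. The ligands Efnb1 (-0.98 ± 0.19) and Sema4g (-0.66 ± 0.14) completed the 10. With 3 against 4 samples the exact permutation p cannot go below 0.0571, which each of the 10 reached with the nearly alike littermates counted as separate samples. Groups without overlap were common here. They were found in 23 members lower in the littermates of 189N3, beside 14.7% of all loci, and in 4 higher, beside 10.8%. The 10 were picked by their adjusted p, so their lack of overlap is not separate evidence.

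The members above 0 in this comparison did not pass in limma: Sema3c was at 8735, 8064 and 8340 in the littermates of 189N3 and 6746, 6805, 3773 and 3672 in those of Dp(16)1Yey (0.74 ± 0.23; adjusted limma p of 0.089), and Epha6 differed by 0.53 ± 0.14 (adjusted limma p of 0.0599, adjusted DESeq2 p of 0.00543). The median over the members was -0.42, beside -0.07 over all loci and -0.05 over named loci. Markers of other tissues differed too. Summed erythroid levels were 34047 to 54502 in the littermates of 189N3 against 4739 to 17439, and mesenchymal levels 4142 to 9016 against 1696 to 2155. Epidermal levels were 674 to 3826 against 393 to 621, and none of these 3 sums overlapped. Of the progenitor and cell cycle genes 11 of 12 were lower (29884 to 36997 against 35366 to 47758). Lower also were 17 of 20 striatal and ventral, 9 of 11 neocortical and 7 of 8 Cajal-Retzius genes, whereas 7 of 10 endothelial genes were higher. Their part in the members' difference was not tested.

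**Figure D5:**
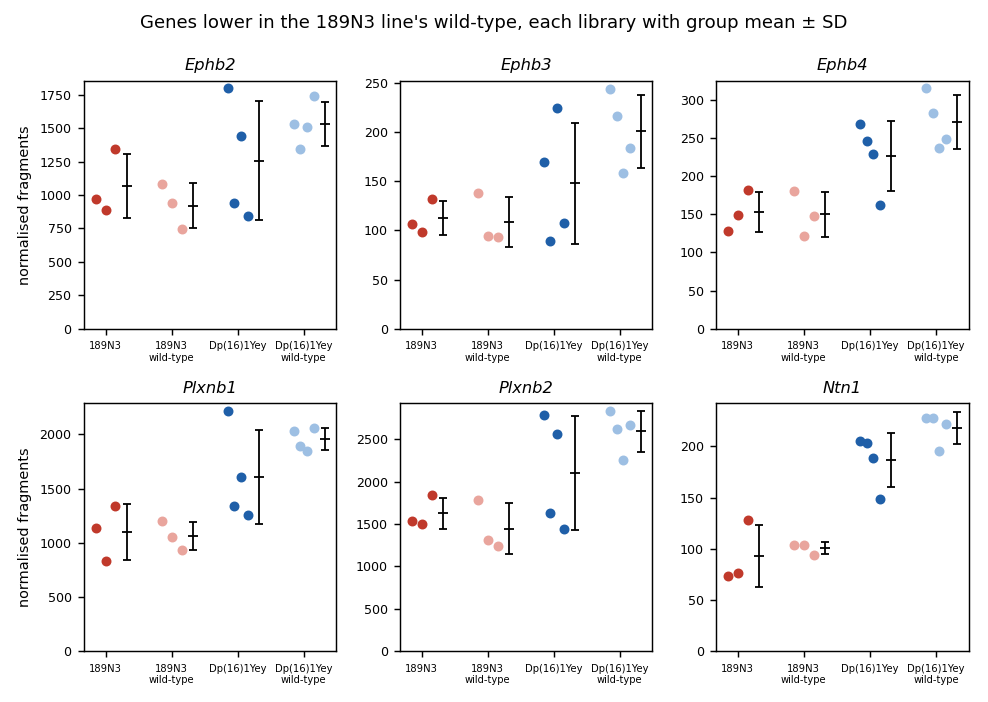
Normalised fragments of 6 of the genes with an adjusted p under 0.05 between the wild-type littermates of the lines, in each library (points) with the group mean ± SD (bars); vertical axes start at 0. In the wild-type groups the 189N3 line lies below the Dp(16)1Yey line without overlap in all 6, for example 94.3 to 104 against 195 to 228 for Ntn1.

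Beyond the members, the signalling genes downstream were looked up from 3 lists. Of 23 genes of Eph and ephrin signalling 0 passed the adjusted threshold in either model (medians of 0.19 in 189N3 and -0.12 in Dp(16)1Yey on the log2 scale), nor did any of 29 of semaphorin, plexin and neuropilin signalling (0.26 and -0.27), nor any of the 24 tested in 189N3 and 23 in Dp(16)1Yey of netrin signalling (0.20 and -0.18). At an unadjusted p under 0.05 there were 0 in 189N3 and 2 in Dp(16)1Yey, 1 higher in the netrin list and 1 lower in the semaphorin list. Over all loci the shares were 1.87% and 3.53%. Between the wild-type groups the kinase gene Abl1 (-0.68 ± 0.15), Arhgef11, whose product binds class B plexins (-0.82 ± 0.14), and Dpysl4, of the collapsin response mediator family (-0.84 ± 0.18), passed and were lower in the littermates of 189N3. These are 1 of 23, 2 of 29 and 0 of 23 genes of the 3 lists, near the 3.75% called over all loci. 4 genes of the lists lie in the duplicated stretch. Dscam, a cell adhesion molecule and netrin receptor, was at 1699, 565, 906 and 1132 in Dp(16)1Yey and 701, 633, 1080 and 1183 in the littermates, overlapping, with a log2 fold change of 0.20 ± 0.32. The exchange factors Tiam1 (0.00 ± 0.32) and Itsn1 (0.12 ± 0.26) and the phosphatase Synj1 (0.17 ± 0.25), all 3 tied to Eph signalling, also had overlapping groups, beside the median of 0.42 for the stretch. With the library labelled Dp(16)1Yey replicate 1 left out, the fold changes of Dscam, Tiam1, Itsn1 and Synj1 were 0.47, 0.25, 0.39 and 0.43, and without replicate 0 they were -0.06, -0.29, -0.09 and -0.02.

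At the level of transcripts, 181 isoforms of the members were tested in 189N3 and 186 in Dp(16)1Yey, and 0 had an adjusted p under 0.05 in either (limma; 0.0366% and 0.0214% of all isoforms). At an unadjusted p under 0.05 there were 10 (5.52%, beside 2.56% of all) and 12 (6.45%, beside 3.48%). The main isoform of Plxna4, with 76.9% of the gene's estimated fragments, was among the 10, at 0.73 ± 0.19 on the log2 scale. The main isoform of Epha3, with 90.8%, was among the 12, at 0.66 ± 0.19, and a minor one with 3.55% was at 1.26 ± 0.35. Other isoforms of these sets were estimated near 0 in 1 group only: an Efna3 isoform held a mean share of 0.370% of the gene in 189N3 and 21.7% in the littermates, and an Efna4 isoform 31.4% and 0.025%. Such shares are the authors' estimates between overlapping isoforms, not counts.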

How the data were processed

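RNA-seq libraries of embryonic hippocampus (14; paired reads of 100 bp) were analysed from the deposited tables. The authors aligned reads to mm10 with TopHat and Bowtie, and merged and quantified transcripts with Cufflinks, correcting for fragment bias and multiply mapped reads; versions are not given in the sources used here. The gene table deposited by the authors holds signal: each value is a locus's fragments after division by the size factor of its library. Multiplied back, 100% of the nonzero values examined in each library were whole within 0.1 fragment. The isoform table holds the authors' estimated signal on the same scale. Loci were named through the deposited transcript map, after its shifted numbering was aligned by matching the sums of isoforms in all 14 columns: 50632 of 59796 loci were matched. Per symbol, the row with the highest mean was kept. Coordinates and exon lengths are from GENCODE vM21. No column of sample values was left unmapped. Columns and replicate numbers (0 to 3) follow the sample labels. Nothing states that each library is 1 embryo, so p-values measure the spread between these libraries, which may be partly technical.

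Loci with a mean of at least 10 in the compared libraries were tested on log2(value + 1) without covariates, using limma 3.58.1 in R 4.3.3 and its moderated test with a mean-variance trend, with p-values adjusted by the Benjamini-Hochberg method over all loci at 0.05; fold changes are on that scale and understate those of low genes. Of the members, 59 were tested in 189N3 (not Epha1 and Ntn5) and 58 in the other comparisons (also not Plxnb3). edgeR 4.0.16 and DESeq2 1.42.0 were run on the recovered fragments. Exact permutation tests (SciPy 1.17.1, Python 3.11.15) were two-sided and took each library as a separate sample. The limma, edgeR and DESeq2 fits did so too, unless nearly alike libraries are said to be averaged. Where any of these tests included the wild-type littermates of Dp(16)1Yey, which were nearly alike in pairs, its p can be too small. On simulated data with 200 loci changed 2-fold (dispersion of 0.03), 52% were called at the size of the 189N3 comparison (35899 loci), 75% for Dp(16)1Yey (36024), 16.5% for the interaction (36045) and 59.5% between the wild-type groups (36047), with 0 calls when none was changed. The simulation gave all loci and groups 1 dispersion and drew each library independently, unlike the nearly alike littermates of Dp(16)1Yey. These shares can therefore overstate what the real libraries could detect.

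Members named with values were the 5 of smallest p in each direction in each model, the leader per kb of each role, Epha3 and Epha8, and the pathway genes in the duplicated stretch or past the threshold. Members named for the wild-type comparison, for their level or for the pairs of littermates were chosen after their values were seen, as was the ratio of 3 under which libraries count as nearly alike. The members and lists were chosen with earlier results of these data known. Every library entered the reported tests. Alternatives were TMM and median-ratio scaling, pseudocounts of 0.1 and 10, the filter dropped or raised to a mean of 100, named loci only, no trend, 1 fit of 4 groups, a replicate block, nearly alike libraries averaged, and each library left out.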

Additional observations from a re-analysis of the deposited data

Results flagged for a closer look

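Sema4c, a membrane-bound class 4 semaphorin, was at 998 normalised fragments in Dp(16)1Yey replicate 0, far from the 450.2, 529.6 and 482 of replicates 1, 2 and 3 of that group. Of 54 groups of 4 libraries examined over the named members, 1 had such a library, and chance gives about 1 in 20.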

How the results depend on the processing

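Counts of members with an adjusted p under 0.05 stayed at 0 in 189N3, Dp(16)1Yey and the interaction under every alternative run, and the medians over members kept their sign: 0.20 to 0.25, -0.28 to -0.22 and -0.55 to -0.47 with all libraries. The 10 members called between the wild-type groups became 6 with median-ratio size factors (2.71% of all loci) and 16 with named loci only (13.9% of those loci). With a mean of at least 100 it was 13 of 51 members (10.2% of those loci). The count was 16 by DESeq2 and 1 without the trend (0.236% of all loci). It was 0 in 1 fit of 4 groups, 0 with nearly alike libraries averaged, and 0 to 2 with a library left out. The cause was not tested beyond the smaller number of samples or loci that some of these use by construction. In Dp(16)1Yey, Unc5c turned to -0.0085 (TMM), -0.012 (median-ratio), -0.074 (edgeR) and -0.077 (DESeq2), and Plxna4 to 0.036 (edgeR) and 0.035 (DESeq2), all near 0. With a library left out, log2 fold changes in 189N3 ran from -0.21 to 0.097 for Efna4, -0.108 to 0.127 for Epha3, -0.096 to 0.159 for Epha5, -0.114 to 0.187 for Epha6, -0.539 to 0.064 for Plxnb3, -0.364 to 0.534 for Plxnd1, -0.118 to 0.426 for Sema3a and -0.595 to 0.206 for Sema3b. In Dp(16)1Yey they ran from -0.19 to 0.084 for Efna1, -0.282 to 0.204 for Plxna4 and -0.183 to 0.23 for Unc5c. In the interaction they ran from -0.26 to 0.047 for Efna4, -0.209 to 0.184 for Ntn1, -0.088 to 0.542 for Sema3a and -0.046 to 0.35 for Sema5a, and between the wild-type groups from -0.086 to 0.715 for Sema3b. Same-numbered samples did not deviate together (correlations of -0.03, -0.32 and -0.15 in 189N3 and -0.41, -0.07, -0.45 and -0.16 in Dp(16)1Yey), so the numbers do not pair them. Libraries of other numbers did: Dp(16)1Yey replicate 0 correlated with wild-type replicates 2 and 3 (0.41 and 0.46). Dp(16)1Yey replicate 2 correlated with wild-type replicates 0 and 1 (0.46 and 0.45). Replicates 1 and 3 had correlations between -0.16 and 0.17. What these libraries share was not tested, and the replicate block, which follows the numbers, does not adjust for it. With the replicate block, 0 members had an adjusted p under 0.05 in each of 189N3, Dp(16)1Yey and the interaction, and the medians were 0.21, -0.25 and -0.49; at an unadjusted p under 0.05 the interaction had 1 member in place of 4, beside 1.42% of all loci. With 20809135 to 29098454 fragments a library, Epha1 and Ntn5, and Plxnb3 outside 189N3, had too few fragments to be tested.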
